A study of Homo sapiens with 12 samples.

Results

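Aminopeptidases are the enzyme class that tosedostat inhibits, and the mRNA of 10 aminopeptidase genes was followed through 4 groups of H929 cells. The genes were LAP3, NPEPPS, LTA4H, ANPEP, RNPEP, DNPEP, METAP1, METAP2, ERAP1 and LNPEP. They were taken by name, and every probe set that the platform annotation assigns to one of these symbols alone was used, which gave 22 of the 54613 probe sets on the array after control probe sets were set aside. These 22 probe sets belonged to 9 genes, and LNPEP was not analysed here because the annotation used here assigned it no probe set. After the filter on low values 18 probe sets of 8 genes remained, out of 36395 probe sets and 15587 genes kept over the whole array.

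H929 is an established human multiple myeloma cell line, a tumour of antibody-secreting plasma cells, and all groups are of this 1 line. Untreated cells were compared with cells given tosedostat (CHR2797, an aminopeptidase inhibitor) at 1 µM, CHR-3996 (a histone deacetylase inhibitor, which keeps acetyl groups on histones and other proteins) at 250 nM, or both compounds at these doses, each for 24 hours. Each group held 3 arrays labelled as biological replicates, and no time is given for the untreated cells. The labels do not say whether the replicates were separate cultures, so a p-value here measures the spread between these samples, which may be partly technical, and 3 arrays per group limit the precision of each value.

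Aminopeptidases, many of them metal-dependent, are enzymes that remove amino acids one at a time from the amino end of peptides. In the cytosol they finish the work of the proteasome, cutting its peptide products down to free amino acids that can be used again, a turnover that is high in plasma cells because they make large amounts of antibody. Other members have narrower tasks: the methionine aminopeptidases take the first methionine off new proteins, ERAP1 trims peptides in the endoplasmic reticulum for display on class I molecules, and LTA4H also makes the inflammatory lipid leukotriene B4.

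Promoter sequences are shown for LTA4H, whose mRNA had the largest change among the measured members, DNPEP, whose mRNA fell under CHR-3996, and LAP3, whose change was not called in any comparison. They are RefSeq sequences of build GRCh38.p14 and run from 250 bases before to 50 bases after an annotated start, read 5′ to 3′ on the gene's own strand. The windows are chr12:96035538-96035837 on the minus strand for LTA4H, chr2:219387863-219388162 on the minus strand for DNPEP, and chr4:17576948-17577247 on the plus strand for LAP3. Capitals mark the GC box GGGCGG on either strand, with overlapping matches joined.
LTA4H: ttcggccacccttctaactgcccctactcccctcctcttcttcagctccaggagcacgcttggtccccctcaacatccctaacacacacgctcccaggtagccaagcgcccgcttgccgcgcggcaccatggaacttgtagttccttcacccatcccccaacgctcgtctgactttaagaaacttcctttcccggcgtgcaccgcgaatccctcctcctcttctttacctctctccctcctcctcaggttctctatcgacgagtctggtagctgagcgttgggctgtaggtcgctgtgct
DNPEP: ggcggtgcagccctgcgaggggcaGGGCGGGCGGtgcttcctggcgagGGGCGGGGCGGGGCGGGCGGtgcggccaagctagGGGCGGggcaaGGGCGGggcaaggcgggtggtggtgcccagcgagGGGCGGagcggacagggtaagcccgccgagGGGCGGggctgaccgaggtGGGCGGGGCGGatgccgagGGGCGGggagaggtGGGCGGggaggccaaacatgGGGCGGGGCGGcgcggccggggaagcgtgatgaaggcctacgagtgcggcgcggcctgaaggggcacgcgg
LAP3: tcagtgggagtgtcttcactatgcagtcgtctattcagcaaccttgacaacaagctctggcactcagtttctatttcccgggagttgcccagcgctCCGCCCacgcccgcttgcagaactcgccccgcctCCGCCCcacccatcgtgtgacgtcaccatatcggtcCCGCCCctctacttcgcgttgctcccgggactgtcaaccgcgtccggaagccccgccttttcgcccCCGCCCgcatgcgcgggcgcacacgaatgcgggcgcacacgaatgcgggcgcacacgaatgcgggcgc
The LTA4H window held no GC box and had 58.7% G and C, which was also the median over 35116 human promoter windows of this length. The LAP3 window held 4 GC boxes. The DNPEP window held 16 GC boxes and 79.3% G and C, and 0.014% of all windows held as many. The other DNPEP windows in the table held 2 and 0 GC boxes. Over the 16 windows of 9 members, 9 held a GC box, compared with 45.0% of all windows. The amino acid response element TGATGNAA, searched on both strands, was in none of the 16 member windows and in 3.6% of all windows. The table used here gave no window for METAP2. A match to these letters is a description of the sequence and no evidence of binding.

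Values are log2 expression as deposited. The median over all probe sets was 5.04 ± 0.04 (SD, n = 3) in untreated arrays, 5.05 ± 0.01 under tosedostat, 5.26 ± 0.03 under CHR-3996 and 5.29 ± 0.02 under the combination. The β-actin 3′ probe set exceeded the 5′ probe set by 2.14 ± 0.17 log2 units in untreated arrays and by 1.24 ± 0.15 under the combination, with 2.09 ± 0.11 under tosedostat and 1.59 ± 0.17 under CHR-3996. The same difference for GAPDH was 0.44 ± 0.06 in untreated arrays, 0.43 ± 0.08 under tosedostat, 0.45 ± 0.06 under CHR-3996 and 0.35 ± 0.09 under the combination. The array median and the β-actin difference moved with CHR-3996, and their part in the changes below was not tested. All 7 plasma cell markers were measured in untreated cells, among them SDC1 (12.03) and TNFRSF17 (13.50). Under CHR-3996 4 of the 7 were lower, where 18% of all genes were. The summed linear level of the 7 ran from 37339 to 39417 in untreated arrays and 38106.5 to 41737 under tosedostat. It ran from 16659 to 26396 under CHR-3996 and 22750 to 23484 under the combination. Of 16 markers of B cells, T cells, myeloid, erythroid and stromal cells, 13 were in the annotation and 10 passed the filter, and the summed linear level of the 13 ran from 603.9 to 657 in untreated arrays, 534 to 641 under tosedostat, 784 to 1111 under CHR-3996 and 795 to 1210 under the combination. CD3D, CD14 and COL3A1 did not pass the filter, and 1 of the 13 was listed at 0 on a CHR-3996 array. LYZ, a myeloid marker, and HBB, a haemoglobin gene, were higher under CHR-3996 by 2.03 (adjusted p 0.00068, limma) and 1.67 (adjusted p 0.0049, limma). Of 2 measured T cell markers 1 was also higher, by 0.60, where 31.7% of all genes were higher. The other 2 measured myeloid markers, the 2 of B cells and the 2 stromal ones (-0.25 and -0.22) were not called. The part of these markers in the results was not tested. In such bulk samples, fewer cells that hold an mRNA and less of it per cell cannot be told apart.

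In untreated H929 cells all 8 measured members were above the 40th percentile of every array with at least 1 probe set. LAP3, the cytosolic leucine aminopeptidase, stood at 12.15 ± 0.06 (SD, n = 3), METAP2 at 11.23 ± 0.20 and LTA4H at 11.06 ± 0.08. DNPEP, which removes acidic residues, stood at 10.80 ± 0.05, METAP1 at 10.63 ± 0.10 and NPEPPS, the puromycin-sensitive aminopeptidase, at 10.55 ± 0.17. RNPEP, or aminopeptidase B, which removes basic residues, stood at 9.82 ± 0.05 and ERAP1 at 9.51 ± 0.30. Each value belongs to the probe set of its gene with the highest mean over all 12 arrays. For ERAP1 another probe set, 209788_s_at, was higher in the untreated arrays, at 9.58 ± 0.06. Brightness also depends on the probes, so these levels set no order among the genes.

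ANPEP, the surface enzyme CD13 of myeloid and epithelial cells, was not measured above background. Its 3 probe sets were below the 40th percentile on all 12 arrays. The values of 202888_s_at ran from 0 to 2.76, those of 234458_at from 3.36 to 4.38, and 234576_at was listed at 0 on 10 arrays and reached 3.21 on 1 combination array. No group stood above the percentile line, and ANPEP was therefore left out of the tests. One ERAP1 probe set, 214034_at, was below the line on all arrays as well.

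**Figure D1:**
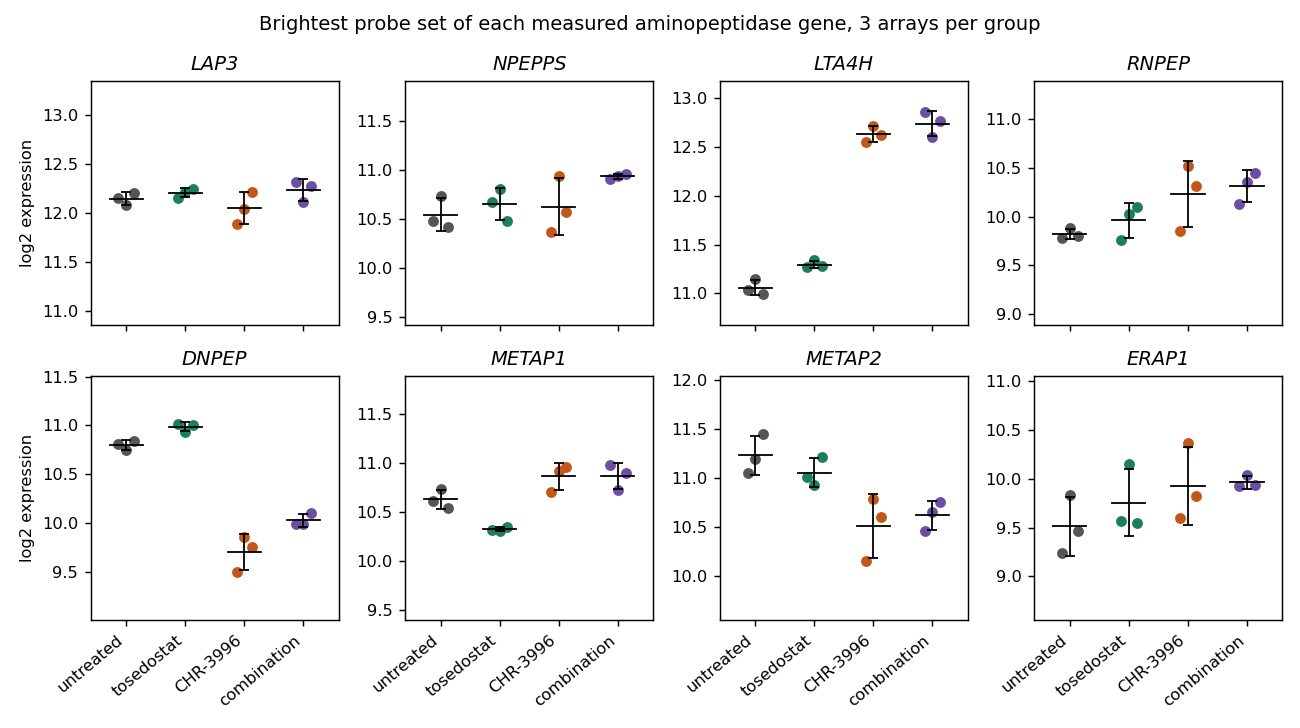
Log2 expression of the brightest probe set of each of the 8 measured aminopeptidase genes, 1 panel per gene, with 1 point per array, the group mean (line) and SD (bar) over 3 arrays; each panel spans 2.5 log2 units around its own middle. LTA4H was at 12.55 or higher on all 6 arrays with CHR-3996 and at 11.34 or lower on the other 6, whereas DNPEP was at 10.11 or lower with CHR-3996 and at 10.75 or higher without it.

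The first comparison asks whether tosedostat changed the mRNA of the aminopeptidase genes. These data do not show which of the enzymes were inhibited at this dose. No measured member passed the test under tosedostat alone. Of 8 genes, 0 were called (limma, adjusted p under 0.05), where 4.8% of all 15587 genes were called, and 2 members, LTA4H and METAP1, had an unadjusted p under 0.05. Of the 18 probe sets 0 were called, where 3.68% of all probe sets were, and 3 had an unadjusted p under 0.05. The log2 changes of the members ran from -0.31 to 0.24, and their 95% intervals lay between -0.57 and 0.75. The median over the members was 0.12, beside 0.04 over all genes.

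LTA4H read 11.04, 11.14 and 10.99 on the untreated arrays and 11.27, 11.34 and 11.28 on the tosedostat arrays. The groups did not overlap, but the difference of 0.24 ± 0.10 (SE) had an adjusted p of 0.29 (limma). METAP1, which cuts the first methionine from nascent chains beside METAP2, read 10.61, 10.73 and 10.55 without treatment and 10.32, 10.31 and 10.35 with tosedostat. Its 3 tosedostat arrays were all below the untreated ones, and the difference of -0.31 ± 0.11 (SE) had the lowest adjusted p of the members, 0.20 (limma). The changes of LAP3, 0.06, NPEPPS, 0.11, RNPEP, 0.14, DNPEP, 0.19, METAP2, -0.18, and ERAP1, 0.24, lay within arrays that overlapped between the groups in all of these except DNPEP, whose 3 values of 10.93 to 11.02 were above the untreated 10.75 to 10.84 (adjusted p 0.47, limma).

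Under CHR-3996 alone, LTA4H rose and DNPEP and METAP2 fell. That is 1 member higher and 2 lower of 8, or 37.5%, in a comparison that called 49.7% of all genes, 31.7% higher and 18% lower. The median change of the members was 0.16 and that of all genes 0.11. By probe set, 2 of 18 were higher and 8 lower, where 45.1% of all probe sets were called. The 8 include the DNPEP probe set 215135_at, which was below the 40th percentile on every CHR-3996 array.

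LTA4H, which both cuts tripeptides and converts leukotriene A4 to leukotriene B4, had the largest change of the members. Its CHR-3996 arrays read 12.55, 12.71 and 12.63, and every one was above every array without CHR-3996. The rise of 1.57 ± 0.10 (SE) on the log2 scale was 2.97-fold, with an adjusted p of 8.9e-07 (limma). It lay between 1.35 and 1.61 in all alternatives tried.

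DNPEP fell. On its brightest probe set, 38703_at, the untreated arrays read 10.81, 10.75 and 10.84 and the CHR-3996 arrays 9.50, 9.86 and 9.75, without overlap. The fall of 1.10 on the log2 scale (-1.10 ± 0.11, SE) corresponded to a level 2.14-fold lower, with an adjusted p of 1.4e-05 (limma). The probe set 201937_s_at moved the same way, by -1.28. The dim 215135_at was above the 40th percentile on 3 arrays, none of them with CHR-3996, so it passed the filter only where it was high, and its call is not counted toward the fall of DNPEP.

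METAP2, the methionine aminopeptidase that fumagillin binds, fell on 3 of its 4 probe sets and rose on the remaining one. On 209861_s_at the untreated arrays read 11.06, 11.19 and 11.45 and the CHR-3996 arrays 10.15, 10.78 and 10.61. The groups did not overlap, and the change was -0.72 ± 0.18 (SE), 1.65-fold lower, with an adjusted p of 0.0058 (limma). The changes of 227993_at, -0.60, and 213899_at, -0.74, had the same direction. The dimmest, 202015_x_at, rose from 5.38, 5.70 and 5.70 to 6.49, 6.25 and 6.27, a change of 0.74 ± 0.16 (SE, adjusted p 0.0030, limma). The suffix x marks a probe set some of whose probes also match other sequences, so the value of that probe set for METAP2 is uncertain. Averaged over its 4 probe sets the METAP2 change was -0.33 (adjusted p 0.014, limma).

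ERAP1 was not called on 210385_s_at, its probe set with the highest mean over all 12 arrays, while 209788_s_at and 214012_at were lower. In untreated arrays 209788_s_at was the brighter of the first 2, at 9.58 beside 9.51. The choice of probe set thus rests partly on the treated arrays, and by 209788_s_at ERAP1 would have been called lower. On 210385_s_at the untreated arrays read 9.24, 9.83 and 9.46 and the CHR-3996 arrays 9.59, 10.37 and 9.82, groups that overlapped (0.41 ± 0.23, SE, adjusted p 0.17, limma). On 209788_s_at the change was -0.44 (adjusted p 0.012, limma) and on 214012_at -0.48 (adjusted p 0.0043, limma), and 209701_at, at 0.28, was not called. No single direction can therefore be given for ERAP1.

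The remaining members were not called. RNPEP read 9.86, 10.52 and 10.32 under CHR-3996, where replicate 1 lay among the untreated values of 9.78, 9.88 and 9.80 (0.41 ± 0.17, SE, adjusted p 0.074, limma). Without CHR-3996 replicate 1 the RNPEP change was 0.59 (adjusted p 0.0073, limma), and METAP1, at 0.24 with all arrays, was called at 0.31, so that 5 members were called. LAP3 changed by -0.10 (95% interval -0.35 to 0.15) and NPEPPS by 0.08 (-0.26 to 0.43), with no call on any of the 3 NPEPPS probe sets. Probes of NPEPPS may share signal with its transcribed pseudogene NPEPPSP1, which the array values cannot separate. With all arrays at a common median, a setting that moved the median of all genes from 0.11 to -0.11, LAP3 was at -0.32 (adjusted p 0.038, limma).

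**Figure D2:**
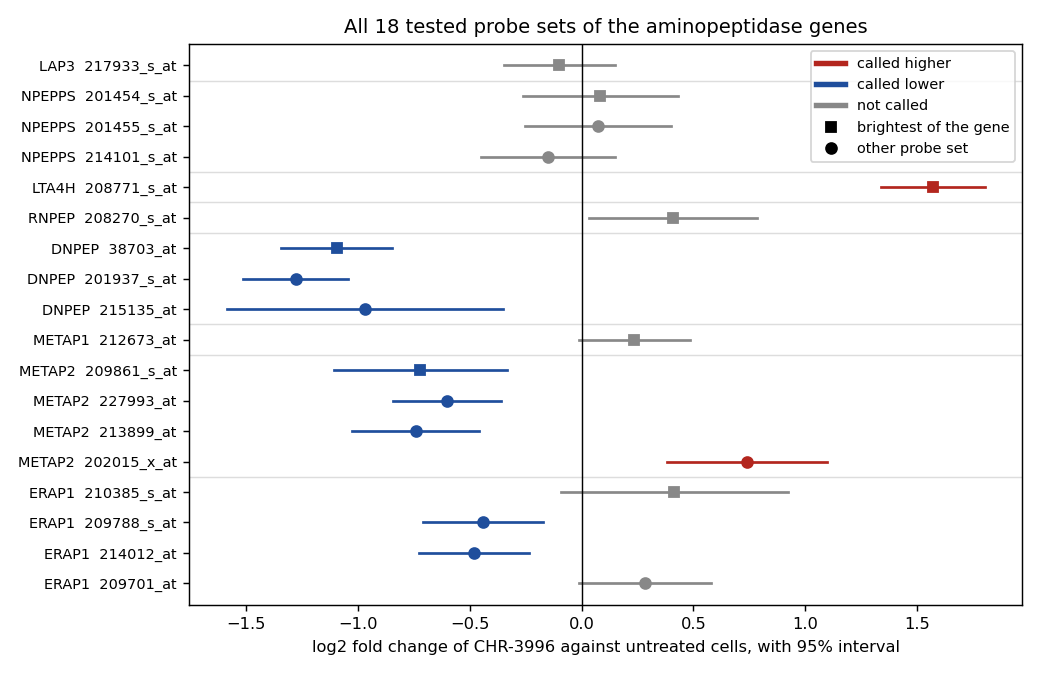
CHR-3996 compared with untreated cells, as log2 fold change (horizontal axis), for all 18 tested probe sets of the 8 genes, with 95% intervals as lines; squares are the brightest probe set of a gene. DNPEP 38703_at and 201937_s_at lay at -1.10 and -1.28, 215135_at passed the filter only on arrays without CHR-3996, and METAP2 and ERAP1 each had probe sets on both sides of 0.

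With both compounds, LTA4H and RNPEP were higher and DNPEP and METAP2 lower than in untreated cells, 2 of 8 members in each direction, where 50.5% of all genes were called, 34.6% higher and 15.9% lower. Of the 18 probe sets 3 were higher and 8 lower, 215135_at again among the lower, where 46.1% of all probe sets were called. The median of the members was 0.32, beside 0.15 over all genes. This comparison shares its untreated arrays with the single treatments, so the values are given side by side and their likeness is not a separate result. LTA4H read 12.86, 12.60 and 12.76. Its change was 1.68 ± 0.10 (SE), 3.21-fold, with an adjusted p of 5.2e-07 (limma), beside 1.57 under CHR-3996 and 0.24 under tosedostat. DNPEP read 9.99, 10.00 and 10.11, with a change of -0.77 ± 0.11 (SE), 1.70-fold lower (adjusted p 0.00019, limma), beside -1.10 and 0.19. All 6 of these arrays lay outside the untreated range of their gene.

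METAP2 read 10.46, 10.65 and 10.75 under the combination, all below the untreated arrays, and changed by -0.61 ± 0.18 (SE, adjusted p 0.014, limma). The METAP2 call was lost without untreated replicate 3, where the change was -0.51 and 2 members were called, and without combination replicate 1, where it was -0.53. The METAP2 probe set 202015_x_at was again higher, by 0.75 (adjusted p 0.0028, limma), and the mean over the 4 METAP2 probe sets changed by -0.31 (adjusted p 0.020, limma). RNPEP read 10.13, 10.36 and 10.44, all above the untreated arrays, and changed by 0.49 ± 0.17 (SE, adjusted p 0.036, limma). That call was kept in 12 of 21 alternatives. It was lost after quantile normalization (0.29, adjusted p 0.097, limma) and without any 1 of 5 arrays, the 3 untreated ones and combination replicates 2 and 3, where the change ran from 0.42 to 0.52. NPEPPS read 10.91, 10.94 and 10.96 against 10.48, 10.74 and 10.42 untreated, without overlap, and missed the threshold at 0.39 ± 0.16 (SE, adjusted p 0.063, limma). NPEPPS passed in 7 alternatives, with adjusted p from 0.027 to 0.045 (limma). Its probe sets 201455_s_at and 214101_s_at were not called, at 0.11 and -0.18. The mean over its 3 probe sets was 0.11 (adjusted p 0.46, limma). With a common median NPEPPS was at 0.15 (adjusted p 0.48, limma). LAP3 at 0.09, METAP1 at 0.24 and ERAP1 at 0.45 were not called, and the ERAP1 probe sets 209788_s_at and 214012_at were again at -0.33 and -0.63, both called lower. The call of 209788_s_at was kept in 7 of 20 alternatives, with an adjusted p of up to 0.15 (limma).

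**Figure D3:**
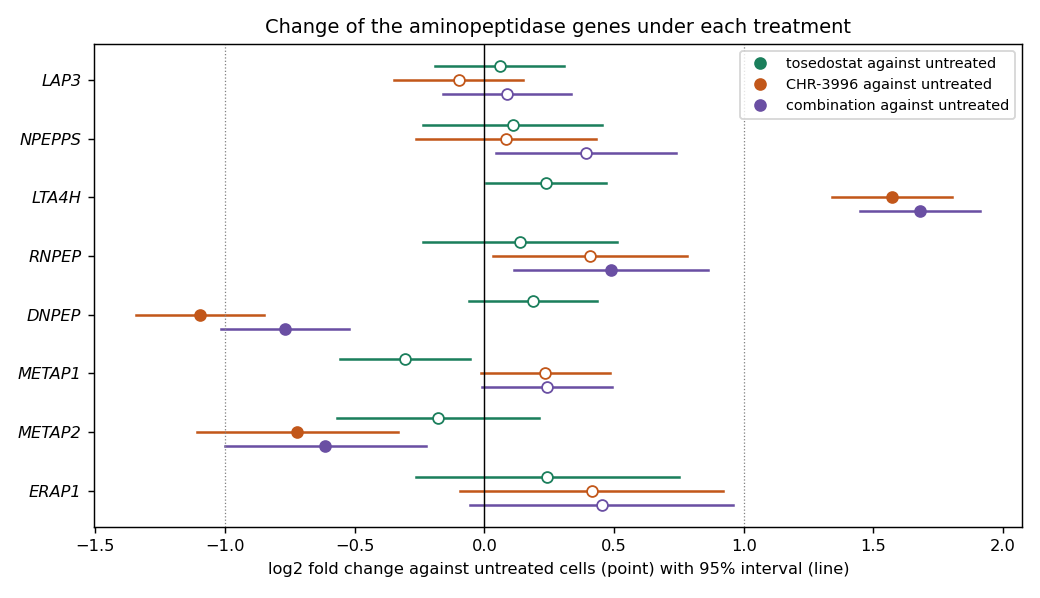
Log2 fold change against untreated cells (horizontal axis) of the brightest probe set of each measured aminopeptidase gene under tosedostat, CHR-3996 and the combination, with 95% intervals as lines; filled points were called and open points were not. All tosedostat points were open, and the filled points were LTA4H, DNPEP and METAP2 under both treatments with CHR-3996 and RNPEP under the combination.

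Adding CHR-3996 to tosedostat gave the same question on other control arrays. Against tosedostat alone, LTA4H and METAP1 were higher and DNPEP lower under the combination, 3 of 8 members, where 46.2% of all genes were called, 30.4% higher and 15.8% lower. LTA4H differed by 1.44 ± 0.10 (SE), 2.72-fold, with an adjusted p of 2.4e-06 (limma). DNPEP differed by -0.96 ± 0.11 (SE), 1.94-fold lower, with an adjusted p of 5.1e-05 (limma). METAP1 read 10.98, 10.73 and 10.90 under the combination, all above the 3 tosedostat arrays. Its difference was 0.55 ± 0.11 (SE), 1.46-fold, with an adjusted p of 0.0024 (limma), and once all arrays had a common median it was 0.31 (adjusted p 0.053, limma).

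By a cutoff on correlations the replicate numbers paired these groups, although the titles do not say what the numbers mark. With the replicate block 5 members were called against tosedostat. The added ones were RNPEP at 0.35 (adjusted p 0.043, limma) and METAP2 at -0.43 (adjusted p 0.025, limma), whose adjusted p without the block were 0.12 and 0.070 (limma). METAP2 also passed in other alternatives, among them quantile normalization (-0.51, adjusted p 0.017, limma) and a common median (-0.67, adjusted p 0.0074, limma). Without the block its probe sets 227993_at (-0.55) and 213899_at (-0.60) were called lower and 202015_x_at (0.92) higher. The mean over its probe sets was -0.17 (adjusted p 0.18, limma). NPEPPS at 0.28, ERAP1 at 0.21 on its brightest probe set and LAP3 at 0.03 were not called with or without the block. Without the block the ERAP1 probe sets 209788_s_at (-0.46, adjusted p 0.0099, limma) and 214012_at (-0.46, adjusted p 0.0060, limma) were called lower. Each of these calls was kept in 19 of 20 alternatives. The ERAP1 probe set 209701_at, at 0.17, was not called. Leaving out CHR-3996 replicate 1, which enters through the shared spread alone, also gave 5 called members.

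Adding tosedostat to CHR-3996 left no member past the test. Against CHR-3996 alone, 0 of 8 members were called (limma), where 0.0577% of all genes were, and 1, DNPEP, had an unadjusted p under 0.05. DNPEP was 0.33 ± 0.11 (SE) higher, with all 3 combination arrays above the CHR-3996 arrays and an adjusted p of 0.35 (limma). The 95% intervals of the members lay between -0.47 and 0.65, and that of LTA4H ran from -0.12 to 0.34. In the interaction, which asks whether the combination departed from the sum of both single changes, 0 of 8 members were called and 0 had an unadjusted p under 0.05 (limma), beside 0.276% of all genes called. Its estimates for the members ran from -0.20 to 0.31.

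Related enzymes were described by lists chosen for function, with the counts over all genes above as background. Of 14 other aminopeptidases 12 were measured, and 0 were called under tosedostat, where 2, NPEPL1 and PGPEP1, had an unadjusted p under 0.05 (limma). NPEPL1 was at 0.40 (adjusted p 0.13, limma) and PGPEP1 at 0.50 (adjusted p 0.12, limma). Of the 4 kept probe sets of PGPEP1, 1 was called higher. Without CHR-3996 replicate 2, 1 gene of this list was called. Under CHR-3996 3 were higher and 1 lower, with a list median of 0.14 beside 0.11 for all genes. ENPEP, glutamyl aminopeptidase, rose by 1.66, AOPEP, aminopeptidase O, by 0.82 and CTSH, a lysosomal cathepsin with aminopeptidase activity, by 0.66. The adjusted p were 0.00038, 0.011 and 0.00026 (limma). ENPEP and AOPEP were dim, at 5.13 and 5.59 in untreated cells, beside an array median of 5.04. METAP1D, the mitochondrial methionine aminopeptidase, fell by 1.37 on the log2 scale (-1.37 ± 0.13, SE, adjusted p 6.9e-06, limma).

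Of 15 oligopeptidases and dipeptidases, which cut short peptides, 0 were called under tosedostat and 1 had an unadjusted p under 0.05 (limma). Under CHR-3996 5 were higher and 2 lower, with a median of 0.26. TPP1, lysosomal tripeptidyl peptidase, rose by 1.45 and PEPD, which splits dipeptides ending in proline, by 0.92. THOP1, thimet oligopeptidase, fell by 1.31 (-1.31 ± 0.14, SE, adjusted p 1.6e-05, limma) and DPP3 by 0.64 (-0.64 ± 0.13, SE, adjusted p 0.0017, limma) on the log2 scale.

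Of 13 genes that process nascent chains at their amino end beside the methionine aminopeptidases, 11 were measured. None of the 11 was called under tosedostat, and 1 had an unadjusted p under 0.05 (limma). Without CHR-3996 replicate 1, 1 gene of this list was called. Under CHR-3996 1 was higher and 5 were lower, with a median of -0.21. NMT2, an N-myristoyltransferase, rose by 1.66, and its paralog NMT1 fell by 0.87 (-0.87). NAA25 and NAA15, auxiliary subunits of the N-terminal acetyltransferases NatB and NatA, fell by 0.99 (-0.99) and 0.97 (-0.97).

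**Figure D4:**
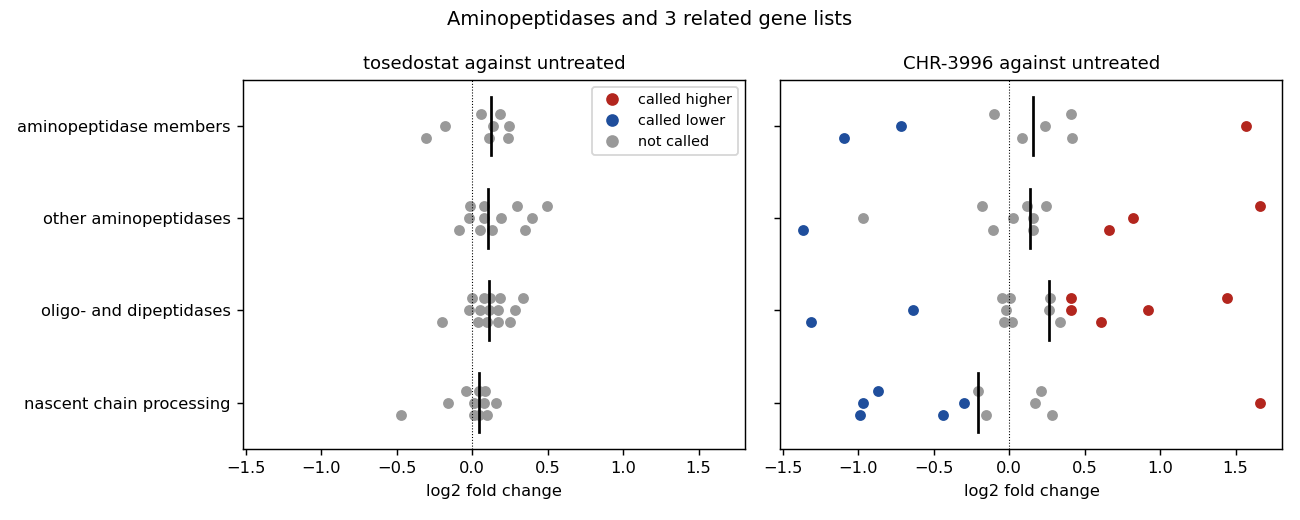
Log2 fold change (horizontal axis) of the measured genes in the aminopeptidase members and 3 related lists, under tosedostat (left) and CHR-3996 (right) against untreated cells, with 1 point per gene and the list median as a vertical line. By its brightest probe set, no gene of these 4 lists was called under tosedostat, whereas each list held genes called in both directions under CHR-3996.

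The lists around ERAP1 and LTA4H did include genes that passed the test under tosedostat. Of 5 genes that load peptides on class I molecules 2 were higher with tosedostat, the peptide transporter subunit TAP1 by 0.85 (adjusted p 0.0021, limma) and the chaperone TAPBP by 0.75 (adjusted p 0.037, limma), with a list median of 0.48. Of these 2 calls 1 was left when any 1 of 8 arrays was left out. Under CHR-3996 TAP1 was higher by 0.41, while TAPBPL (-1.38) and TAP2 (-0.68) were lower. Of 6 measured genes of the leukotriene pathway, ALOX5AP, the partner protein of 5-lipoxygenase, was higher with tosedostat by 1.10 (adjusted p 0.010, limma), and PLA2G4A, which frees arachidonic acid, was lower (-0.62, adjusted p 0.044, limma). Of these 2 calls 1 was left when any 1 of 9 arrays was left out, and 0 when the fit held only the arrays of the groups compared. Under CHR-3996 PLA2G4A was higher by 1.82 and ALOX5, 5-lipoxygenase itself, by 1.34, and the leukotriene B4 receptor gene LTB4R was lower (-0.52).

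Of 13 genes of the amino acid response, which cells switch on when free amino acids run short, 7 rose with tosedostat and 0 fell, with a list median of 0.73 beside 0.04 for all genes, and the count ran from 5 to 11 when single arrays were left out, the highest without CHR-3996 replicate 1. CHAC1 rose by 2.74, DDIT3 by 2.02, SESN2 by 1.89 and SLC7A11, the cystine transporter, by 1.62. Under CHR-3996 8 were higher and 2 lower.

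The expression pattern of LTA4H over the 12 arrays was most like those of CGGBP1 (Pearson r 0.998), QSOX1 (0.998) and SAMD9 (0.998) among 15586 other genes, of which 19.4% had an r over 0.9. For METAP1, which had the largest absolute change of the members under tosedostat, the closest were PIGB (0.971), MTMR12 (0.968) and APEH (0.964), and 0.770% of genes had an r over 0.9. The 12 points fall into treatment groups, so these values describe shared group differences.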

How the data were processed

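RNA of H929 cells was amplified in 2 rounds of in vitro transcription and hybridized to Affymetrix U133 Plus 2.0 arrays. The authors normalized the 12 arrays and summarized probe sets in dChip, whose version and settings the sources used here do not give, and deposited log2 values of which 1141 to 1344 per array are exactly 0. No column of the table belonged to other samples (0).

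The deposited log2 values were fitted with limma 3.58.1 in R 4.3.3, with all 4 groups in 1 model (8 residual degrees of freedom) and Benjamini-Hochberg adjustment over all probe sets kept. Control probe sets (62) were left out, and a probe set was kept if it was above the 40th percentile of its array on at least 3 of 12 arrays. Of those kept, 29161 had 1 gene symbol in the platform annotation, 1365 several and 5869 none, and genes were named from 1 symbol only. A gene was represented by its kept probe set with the highest mean over all arrays, and it was called at an adjusted p under 0.05. The ± values beside fold changes are limma standard errors. The code was tested on simulated data with 200 changed probe sets. Figures used matplotlib 3.10.9.

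All members were named with every probe set. Of other lists, counts were given and up to 4 called genes with the largest change were named. LYZ, HBB, NPEPL1, PGPEP1 and the plasma cell markers were picked with their values in view. The members and lists were chosen with earlier results of these data known.

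Replicate numbers come from the sample titles, which do not say what they mark. Once group means were subtracted, arrays with the same number were correlated, and groups were taken as paired where every such correlation was over 0.1. These correlations were 0.126 to 0.288 between untreated and tosedostat and 0.116 to 0.157 between tosedostat and CHR-3996. They were 0.190 to 0.233 between tosedostat and the combination and 0.179 to 0.280 between CHR-3996 and the combination. By this cutoff the replicate number paired these groups. The correlations of 0.036 to 0.120 between untreated and CHR-3996 did not all pass. Nor did those of 0.098 to 0.168 between untreated and the combination. The main fit held no replicate term. Alternatives were quantile normalization, a common median, other filters, a replicate block, another variance model, only the groups compared, the mean of probe sets, the size criteria of the study's methods, and leaving out each array.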

Additional observations from a re-analysis of the deposited data

Results flagged for a closer look

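No aminopeptidase member passed the interaction test. In the related lists, 3 amino acid response genes changed less with both compounds than the sum of their single changes, and the number called ran from 1 without CHR-3996 replicate 2 to 5 without CHR-3996 replicate 1. DDIT3 had an interaction of -2.36 ± 0.25 (SE, log2, adjusted p 0.0054, limma), with 2.02 under tosedostat, 3.73 under CHR-3996 and 3.39 under both. SESN2 had an interaction of -1.95 ± 0.24 (adjusted p 0.013, limma), with 1.89, 1.70 and 1.64. ATF3 had an interaction of -1.67 ± 0.23 (adjusted p 0.020, limma), with 1.52, 3.87 and 3.71. ALOX5AP of the leukotriene pathway, which acts upstream of LTA4H, was above the untreated arrays by 0.48 under CHR-3996, which was not called (adjusted p 0.058, limma), while the combination was below the tosedostat arrays (-0.72, adjusted p 0.010, limma), with an interaction of -1.20 ± 0.27 (adjusted p 0.13, limma) that missed the threshold.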

How the results depend on the processing

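LTA4H was called in 21 of 21 alternatives in each of the comparisons with CHR-3996, and DNPEP in 21 of 21 for CHR-3996 against untreated. No called member reversed. The number of members called stayed at 0 in the comparisons that added tosedostat. For CHR-3996 against untreated it went from 3 to 5 with the replicate block, where RNPEP and ERAP1 passed, and from 3 to 5 when single arrays were left out (5 without CHR-3996 replicate 1). In that comparison the METAP2 call was kept in 20 of 21 alternatives and lost under the size criteria of the study's methods. For the combination against untreated it was 4, was 6 with the replicate block, where NPEPPS and ERAP1 also passed, fell to 1 under the size criteria of the study's methods, and ran from 2 to 5 when single arrays were left out (2 without untreated replicate 3). For the combination against tosedostat it was 3, was 5 with the replicate block and 1 under the size criteria, and ran from 3 to 5 when single arrays were left out. The causes were not tested. No share of all genes called is given for these settings, so the counts have no background. Where ERAP1 passed, it was on its brightest probe set, 210385_s_at, while 209788_s_at and 214012_at were called lower without the block. In the comparisons whose replicate numbers passed the correlation cutoff, the block changed no other call of a member.

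Scaling moved the median of all genes under CHR-3996 from 0.11 to -0.09 after quantile normalization and to -0.11 with a common median, and under the combination from 0.15 to -0.10 with either. The share of called probe sets that were higher went from 65.1% to 47.6% and 47.2%, and from 69.3% to 46.6% and 48.8%. Against tosedostat it went from 67.5% to 47.7% and 45.8%. METAP1 under the combination against untreated went from 0.24 to -0.01 with a common median. The depth of an array has no count, and probe sets near background, such as those of ANPEP, have no usable change.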
